A study of Rattus norvegicus with 6 samples.

Results

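Coenzyme Q is the lipid that carries electrons from the dehydrogenases of the mitochondrial inner membrane to complex III, and cells make it themselves. The transcripts described here are those of the 10 genes that encode its synthesis enzymes and the proteins that hold these enzymes together: Pdss1, Pdss2, Coq2, Coq3, Coq4, Coq5, Coq6, Coq7, Coq8a and Coq9. They were measured in the left atria of 6 adult male Sprague-Dawley rats with 1 whole-transcript array per rat. A gene was taken from probe sets whose only symbol in the array annotation is that of the gene, and 9 of the 10 genes had 1 such probe set each. Pdss1 had none and is not measured here. All 9 measured genes passed the filter of the study, which keeps a probe set where 1 or more arrays exceed 5 on the log2 scale. The lowest value of any of them was 6.21, and they are 9 of 11237 genes that passed.

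In the RAP group 3 rats underwent rapid atrial pacing (RAP) at a cycle length of 70 ms for 48 hours, and in the Con group 3 rats were paced at a cycle length of 140 ms for the same time. The rats of both groups carried pacing electrodes on the right atrium, had recovered from that surgery, drank atenolol, a beta blocker that slows conduction to the ventricles, and had a like ventricular rate, so that the groups differed in the atrial rate. RAP rat 1 and Con rat 1 were taken as pair 1 from their replicate number, and likewise for pairs 2 and 3. According to the paper, the rats of a pair were kept in neighbouring cages over the same days. The study kept only pairs whose RNA was of high quality, and the samples are whole left atrial tissue and not isolated cardiomyocytes.

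The pathway starts from an isoprenoid chain, which Pdss1 and Pdss2 build together from the products of the mevalonate pathway. Coq2 attaches this chain to the hydroxybenzoate ring in the mitochondrial inner membrane, and the ring is then hydroxylated and methylated by a complex of Coq proteins on the matrix side. The heart, with its dense mitochondria, is rich in coenzyme Q, and inherited defects of several of these genes affect muscle, kidney and brain.

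The promoters of 8 of the 10 genes were in the table of 300-base promoter sequences (250 bases before to 50 bases after the start of the gene) from RefSeq, assembly GRCr8; Coq2 and Coq4 were not. The 3 shown are those of Coq6 and Coq5, the only measured members past the thresholds in the comparison of RAP with Con, and of Coq9, whose values ran in opposite directions in different pairs. They lie at chr6:109738725-109739024 on the plus strand for Coq6, chr12:46994494-46994793 on the minus strand for Coq5 and chr19:10185887-10186186 on the minus strand for Coq9. Capitals mark, on either strand, the letters ATGGCG (the core bound by YY1), CCAAT (the CCAAT box), CCGGAA (the core bound by ETS factors) and GGGCGG (the GC box bound by Sp factors). AGGTCA, the half-site of nuclear receptors, was searched as well and was in none of the 8 promoters.
Coq6: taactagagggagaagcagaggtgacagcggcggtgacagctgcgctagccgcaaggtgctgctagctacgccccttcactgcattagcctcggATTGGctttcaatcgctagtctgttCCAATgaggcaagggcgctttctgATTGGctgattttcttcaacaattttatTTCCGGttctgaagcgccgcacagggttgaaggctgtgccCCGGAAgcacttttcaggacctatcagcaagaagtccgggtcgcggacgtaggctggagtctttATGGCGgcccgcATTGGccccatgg
Coq5: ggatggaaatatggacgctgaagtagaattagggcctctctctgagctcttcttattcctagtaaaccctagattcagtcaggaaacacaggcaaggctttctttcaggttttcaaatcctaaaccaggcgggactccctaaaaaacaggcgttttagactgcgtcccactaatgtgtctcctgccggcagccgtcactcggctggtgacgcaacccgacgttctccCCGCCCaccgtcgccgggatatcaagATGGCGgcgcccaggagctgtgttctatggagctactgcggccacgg
Coq9: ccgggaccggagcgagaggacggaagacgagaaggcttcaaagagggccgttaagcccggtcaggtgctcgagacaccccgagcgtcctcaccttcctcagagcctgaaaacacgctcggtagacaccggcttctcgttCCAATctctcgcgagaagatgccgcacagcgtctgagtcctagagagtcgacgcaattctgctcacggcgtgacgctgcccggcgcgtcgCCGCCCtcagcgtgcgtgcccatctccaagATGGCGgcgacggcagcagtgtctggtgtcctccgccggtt

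ATGGCG was in 4 of the 8 promoters (Pdss2, Coq5, Coq6 and Coq9), against 9.98% of all 33469 promoters of the table. In Coq5, Coq6 and Coq9 it lay after the start of the gene, where the same letters can also be a start codon followed by an alanine codon. CCAAT was in 4 of the 8 (Pdss2, Coq6, Coq7 and Coq9), against 37.5% of all promoters, and Coq6 and Coq7 held 4 copies each. GGGCGG was in 3 of the 8 (33.1% of all), CCGGAA in 2 of the 8, Pdss1 and Coq6 (15.0%), and AGGTCA was in 16.2% of all promoters. The promoters of Coq3 and Coq8a held none of the 5 motifs, and that of Coq3 had a GC content of 35.3%, against 55.7% for Coq6, 54.3% for Coq5, 64.0% for Coq9 and a median of 51.7% over all promoters. Coq6 and Coq5 therefore shared ATGGCG and no other of these motifs, and Coq9, which did not pass the thresholds, held it as well. The matches marked in the sequences do not overlap each other, and a match describes letters and is not a site of binding.

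RAP and Con were compared with limma, with the pair as a block. Following the thresholds of the study, rose and fell are used of genes whose fold change exceeded 1.3 at an unadjusted p under 0.05. Coq5 and Coq6 rose, none of the 9 fell, and the other 7 did not pass. Among all 11237 genes, 2.94% rose and 3.45% fell on these terms, and 6.89% had an unadjusted p under 0.05. In this fit no probe set had an adjusted p under 0.05 (Benjamini and Hochberg, 19907 probe sets, the smallest adjusted p being 0.756), nor did any by the methods' paired t-test, so each rise is a call at the thresholds of the study and did not survive correction for multiple testing. Of the 9 changes, 8 were above 0, as were 48.8% of those of all genes. The median of the 9 was 0.51 on the log2 scale (from -0.058 to 0.73), beside a median of -0.0074 over all genes. In whole tissue, a change in the number of cells of a type and a change in the RNA per cell, up or down, cannot be told apart. Coq6 is in a list of genes that the study chose on these same samples, so its call here is not independent evidence.

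**Figure D1:**
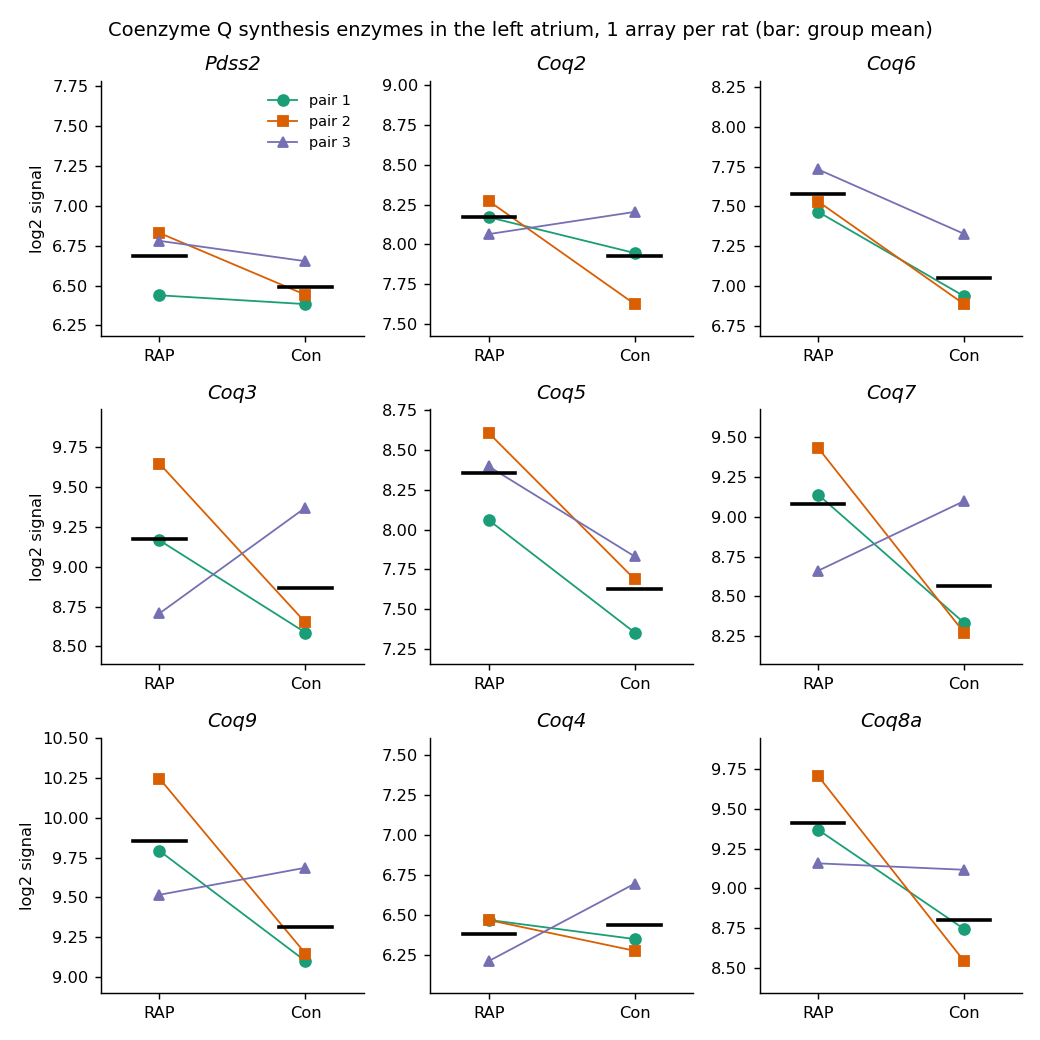
The log2 signal of the 9 measured members (vertical axis, with the same span in each panel) in the RAP and the Con array of each pair. A symbol is 1 rat, a line joins the 2 rats of a pair, and the black bar is the group mean; the line of pair 3 runs the other way from those of pairs 1 and 2 in Coq2, Coq3, Coq4, Coq7 and Coq9.

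Pdss2 encodes the subunit that works with Pdss1 in the synthase of the isoprenoid tail. Its log2 signal was 6.44, 6.83 and 6.78 in RAP rats 1 to 3, against 6.38, 6.44 and 6.65 in Con rats 1 to 3. The RAP rat was the higher of its pair in all 3 pairs, by 0.055, 0.39 and 0.13, and the groups overlapped. The change of 0.19 (SE 0.142, 95% confidence interval -0.18 to 0.56) did not pass the thresholds (unadjusted p = 0.239, adjusted p = 0.803, limma).

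Coq2 is the transferase that joins the tail to the ring. It had a log2 signal of 8.17, 8.27 and 8.07 in RAP rats 1 to 3, against 7.95, 7.63 and 8.20 in Con rats 1 to 3. The RAP rat was higher in pairs 1 and 2 and lower in pair 3, and the lowest Con rat, that of pair 2, stood apart from the others. The change was 0.24 (SE 0.193, interval -0.26 to 0.75) and did not pass (unadjusted p = 0.265, adjusted p = 0.81, limma).

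Coq6 is a flavin-dependent monooxygenase that hydroxylates the ring and receives its electrons from ferredoxin. Its log2 signal was 7.47, 7.53 and 7.73 in RAP rats 1 to 3, against 6.94, 6.89 and 7.33 in Con rats 1 to 3. Every RAP rat was above every Con rat, and the rat of pair 3 was the highest of its group on both sides. The group means were 7.58 ± 0.139 with RAP and 7.05 ± 0.242 with Con (SD, n = 3 each). Within pairs 1 to 3 RAP was higher by 0.53, 0.64 and 0.40, a mean change of 0.53 (SE 0.133, interval 0.18 to 0.87), which is a 1.44-fold higher signal (adjusted p = 0.756, limma). Without pair 1 or without pair 2 the change was 0.52 and 0.47 and no longer passed (SE 0.235 and 0.208), whereas it was 0.59 without pair 3 and passed.

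Coq3 is the methyltransferase that places methyl groups on oxygens of the ring. It had a log2 signal of 9.17, 9.65 and 8.71 in RAP rats 1 to 3, against 8.59, 8.65 and 9.37 in Con rats 1 to 3. The order of the groups was turned in pair 3, where the RAP rat was the lowest of its group and the Con rat the highest. The pair changes were 0.58, 1.00 and -0.66, the widest spread of the 9 members (SD 0.864). The change of 0.30 (SE 0.347, interval -0.60 to 1.21) did not pass (unadjusted p = 0.422, adjusted p = 0.85, limma). Without pair 2 it was -0.042.

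Coq5 is the methyltransferase that adds a methyl group to a carbon of the ring. Its log2 signal was 8.06, 8.61 and 8.40 in RAP rats 1 to 3, against 7.35, 7.69 and 7.83 in Con rats 1 to 3. Every RAP rat was above every Con rat, and the group means were 8.35 ± 0.276 with RAP and 7.62 ± 0.245 with Con (SD, n = 3 each). RAP was higher by 0.71, 0.92 and 0.56 in pairs 1 to 3, a change of 0.73 (SE 0.142, interval 0.36 to 1.10) and a 1.66-fold higher signal (adjusted p = 0.756, limma). This was the largest change of the 9, and it passed the thresholds in all 19 settings tried, at 0.59 to 0.88. These settings overlap: the main fit is among them, and several kept its estimate of 0.73 and changed only the SE.

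Coq7 is the hydroxylase of a late step of the ring, and Coq9 is the lipid-binding protein that presents the substrate to it. Coq7 had a log2 signal of 9.14, 9.43 and 8.66 in RAP rats 1 to 3, against 8.33, 8.27 and 9.10 in Con rats 1 to 3. Coq9 had 9.79, 10.25 and 9.52 in RAP rats 1 to 3, against 9.10, 9.15 and 9.69 in Con rats 1 to 3. For both genes the RAP rat was clearly higher in pairs 1 and 2 and lower in pair 3. The change of Coq7 was 0.51 (SE 0.338, interval -0.37 to 1.39; adjusted p = 0.787, limma). That of Coq9 was 0.54 (SE 0.273, interval -0.17 to 1.25; adjusted p = 0.762, limma). Neither passed, although the estimates were close to the 0.53 of Coq6: their SE was larger than its SE of 0.133.

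Coq4 is a component of the complex that is required for its stability in yeast. Its log2 signal was 6.47, 6.47 and 6.21 in RAP rats 1 to 3, against 6.35, 6.27 and 6.69 in Con rats 1 to 3. It was the only measured member with an estimate below 0, -0.058 (SE 0.188, interval -0.55 to 0.43; adjusted p = 0.948, limma), and the only one whose highest array was Con 3. The sign rested on pair 3: the estimate was 0.16 without that pair. The reference annotation holds a pseudogene of Coq4 (Coq4-ps1), and whether the probes take up its signal was not tested.

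Coq8a encodes an atypical kinase with ATPase activity that the complex needs. It had a log2 signal of 9.37, 9.71 and 9.16 in RAP rats 1 to 3, against 8.75, 8.54 and 9.12 in Con rats 1 to 3. All RAP rats were above all Con rats, but RAP 3 exceeded Con 3 by only 0.040, whereas the differences were 0.62 and 1.16 in pairs 1 and 2. The change of 0.61 (SE 0.244, interval -0.03 to 1.25, 1.52-fold) missed the threshold (unadjusted p = 0.0577, adjusted p = 0.756, limma). Without the pair as a block the same change passed (SE 0.203).

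**Figure D2:**
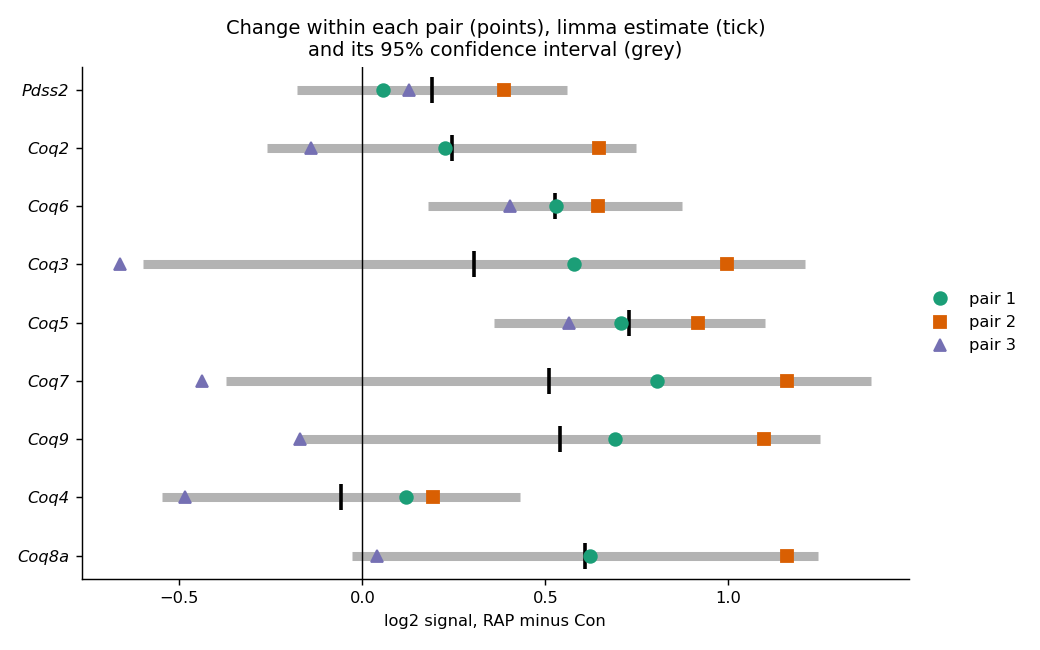
RAP minus Con on the log2 scale (horizontal axis) for each member, in the order of the pathway from the tail to the assembly of the complex. Symbols are the 3 pairs, the black tick is the limma estimate and the grey bar its 95% confidence interval, which lies wholly above 0 for Coq6 and Coq5.

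The members moved together in pairs 1 and 2, but pair 3 differed. In pairs 1 and 2 the RAP rat had the higher signal for 9 of 9 members (33.7% of all genes were higher in both), with medians of 0.58 and 0.92. In pair 3 it was higher for 4 of 9 (Pdss2, Coq5, Coq6 and Coq8a), with a median of -0.14. The medians over all genes were 0.00, -0.02 and 0.01 in pairs 1 to 3. RAP above Con in all 3 pairs was found for 14.3% of all genes (4 of the 9 members), every RAP array above every Con array for 7.57% (3 of the 9 members, Coq5, Coq6 and Coq8a), and higher in pairs 1 and 2 with lower in pair 3 for 19.4% (5 of the 9). The change was largest in pair 2 for all 9 members, as for 34.4% of all genes.

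The members also shared much of the order of the arrays. Con 3 was the highest Con array for 9 of 9 members (36.6% of all genes), RAP 2 the highest RAP array for 7 of 9 (32.5%) and RAP 3 the lowest RAP array for 6 of 9 (36.1%). For Coq5, Coq6 and Pdss2 the lowest RAP array was RAP 1 and not RAP 3. RAP 3 lay 0.42 above the mean of the 6 arrays for Coq6 and 0.41 above it for Coq5, while its mean deviation over the other 7 members, Pdss2 among them, was -0.07. On the Con side Con 3 deviated from the mean by 0.01 for Coq6, by -0.16 for Coq5 and on average by 0.18 for the other 7. Over the 6 arrays the correlation between 2 members ranged from -0.02 (Coq4 with Coq5) to 0.97 (Coq7 with Coq9), with a median of 0.73 over the 36 pairs of members. These points share their arrays and groups, so the correlations are a description only.

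Con 3 also stood apart in its markers of other tissue. The ventricular markers (Myl2, Irx4, Myl3 and Myh7, 4 of 4 measured) had mean log2 signals of 6.70 to 7.39 in RAP rats, against 6.02 and 6.35 in Con rats 1 and 2 and 9.002 in Con 3. Myl2, the ventricular regulatory light chain and the defining marker, was at 8.60 in Con 3 and between 4.28 and 4.89 in the other 5 arrays. Con 3 was also the highest array for Myl3 (10.90, against 9.11 in RAP 2). For Myh7 (11.22, against 10.84 in RAP 2) and Irx4 (5.29, against 5.15 in RAP 2) it was the highest by less. The erythroid markers (5 of 6 measured) averaged 6.52 to 7.16 in RAP rats, against 6.303 and 7.004 in Con rats 2 and 1 and 9.71 in Con 3. None of the measured ventricular and erythroid markers passed the thresholds. The atrial markers (5 of 6 measured) averaged 12.54 to 12.84 in RAP rats and 12.43 to 12.63 in Con rats. Among them Nppa, the atrial natriuretic peptide, was between 13.53 and 13.59 in RAP rats and between 13.40 and 13.52 in Con rats. Nppa and Myl7 lay close to the highest log2 value of all probe sets, 13.9. Whether differences between rats were compressed there was not tested. Of these 5 atrial markers 1 rose, Pam, an enzyme that amidates peptides, at 0.43 (SE 0.15).

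Pair 3 differed from the other pairs in non-myocyte markers as well. The macrophage markers (8 of 8 measured) averaged 8.40, 8.12 and 9.03 in RAP rats 1 to 3, against 9.05, 10.06 and 8.33 in Con rats 1 to 3, and the fibroblast markers (5 of 5) 10.61, 10.18 and 10.97, against 11.19, 11.52 and 10.38. Both lists were thus lower with RAP in pairs 1 and 2 and higher in pair 3, the reverse of Coq2, Coq3, Coq4, Coq7 and Coq9. Of the 8 macrophage markers 1 fell (Vsig4) and of the 5 fibroblast markers none passed. Over the 6 arrays the macrophage mean was correlated with the 9 members at -0.47 (Pdss2) to -0.98 (Coq2), with Coq6 at -0.62 and Coq5 at -0.49. The fibroblast mean was at -0.62 (Pdss2) to -0.97 (Coq7) and the atrial mean at 0.50 (Pdss2) to 0.97 (Coq7). The ranges were -0.15 (Coq5) to 0.91 (Coq4) for the erythroid mean and 0.06 (Coq4) to 0.82 (Pdss2) for the adipocyte mean. For the ventricular mean it was 0.28 (Coq5) to 0.81 (Coq4). These points share their arrays and groups, so these values describe and test nothing. The adipocyte markers (7 of 7 measured) averaged 6.86, 7.31 and 8.25 in RAP rats 1 to 3, against 6.44, 6.81 and 7.76 in Con rats 1 to 3. Their mean was higher with RAP in every pair, as Pdss2, Coq5, Coq6 and Coq8a were. Of these markers 3 rose, Adipoq at 1.09, Cidec at 0.58 and Retn at 0.46. Of the 5 endothelial, 5 mast cell and 4 measured lymphocyte markers none passed. No marker of these lists was absent from the arrays, but Myl2, Irx4, Vsig4, Epb42, Adipoq, Cidec, Lep, Cpa3, Fcer1a and Ms4a2 were below a log2 signal of 5 in at least 1 array. The part of the other cell types in the changes of the members was not tested.

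Leaving out pair 3 changed the count more than any other pair. Without it 6 of 9 members passed (Coq3 at 0.79, Coq5 at 0.81, Coq6 at 0.59, Coq7 at 0.98, Coq8a at 0.89 and Coq9 at 0.90), while the share of all genes that rose was 9.49%. Pdss2, Coq2 and Coq4, at 0.22, 0.44 and 0.16, did not pass in that fit either. Without Con 3 alone, in a fit without pairs, 5 passed as higher with RAP (Coq5, Coq6, Coq7, Coq8a and Coq9), beside 6.85% of all genes in that direction. Without pair 1 or without pair 2 only Coq5 passed, beside 0.516% and 1.46% of all genes that rose. By the methods' paired t-test, with its unadjusted p, Coq5 and Coq6 passed as higher with RAP, as did 1.06% of all genes in that direction. Pdss2, Coq2 and Coq4 passed in none of the 19 settings.

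**Figure D3:**
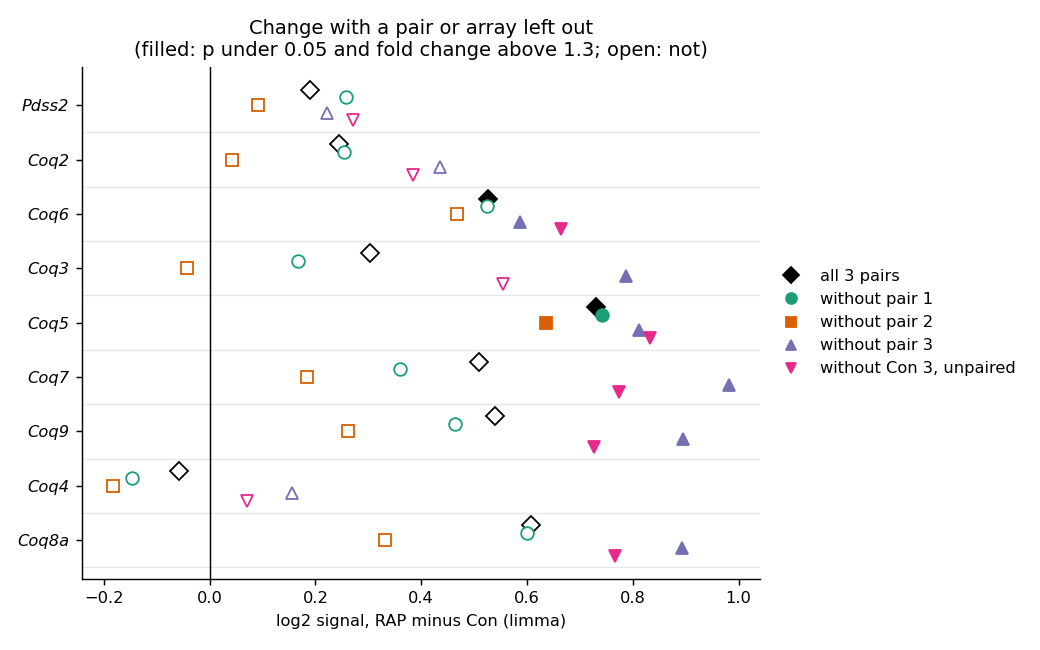
The limma estimate of RAP minus Con (horizontal axis, log2 scale) for each member with all 3 pairs, without each pair in turn, and without Con 3 in a fit without pairs. Filled symbols passed the thresholds; Coq5 is filled in each of the 5 fits, Coq6 in 3 of them, and Coq3, Coq7, Coq8a and Coq9 are open unless pair 3 or, for all of these but Coq3, Con 3 is left out.

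The proteins that assist the pathway did not pass in either direction. Of 9 listed partners 8 were measured (Fdxr, the reductase that feeds ferredoxin, was not), 5 had an estimate above 0 and their median change was 0.23. The largest were Pptc7, a mitochondrial phosphatase, at 0.45 (SE 0.23), Stard7, a lipid transfer protein, at 0.35 (SE 0.193), Coq10b at 0.29 (SE 0.183) and Coq10a at 0.26 (SE 0.23), both of the Coq10 genes encoding lipid-binding proteins needed for coenzyme Q to function in respiration. Coq8b, the close relative of Coq8a, was at -0.066 (SE 0.214), and Fdx2, the ferredoxin, at -0.074 (SE 0.129).

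No gene of the isoprenoid supply passed either. The mevalonate pathway (6 genes measured) had a median of 0.14, and its largest estimates were Acat2 at 0.24 (SE 0.305), Mvd at 0.19 (SE 0.151), Fdps at 0.16 (SE 0.214) and Idi1 at 0.13 (SE 0.323). Its pair medians were 0.10, -0.21 and 0.56 in pairs 1 to 3, so that it was highest in pair 3, where the synthesis enzymes were lowest. Of the genes that draw on the same isoprenoids for sterols, prenyl groups and dolichol, 5 of 6 were measured and none passed (median 0.08), the largest being Dhdds at 0.27 (SE 0.136), Fdft1 at 0.23 (SE 0.172), Lss at -0.20 (SE 0.265) and Ggps1 at 0.08 (SE 0.139).

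Among the users of coenzyme Q, 2 of the 14 dehydrogenases that reduce it rose. They were Sdha, the flavoprotein subunit of complex II, at 0.62 (SE 0.191), and Etfb, a subunit of the electron transfer flavoprotein, at 0.63 (SE 0.199). Etfdh at 0.60 (SE 0.244), Sdhc at 0.52 (SE 0.201), Etfa at 0.50 (SE 0.211) and Sdhd at 0.40 (SE 0.199) did not pass. Of complex III, which oxidizes it, 7 of 9 listed subunits were measured and 2 rose, both core subunits: Uqcrc1 at 0.70 (SE 0.147) and Uqcrc2 at 0.67 (SE 0.179). Uqcrfs1, the Rieske iron-sulfur subunit, was at 0.52 (SE 0.281), Uqcrq at 0.37 (SE 0.228), Uqcr11 at 0.21 (SE 0.202) and Uqcrh at 0.08 (SE 0.218). None of these lists had a member that fell.

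Of 14 genes that stand for the amount of mitochondria, 9 rose: Cs (citrate synthase) at 0.57, the outer membrane channels Vdac1 at 0.69 and Vdac2 at 0.44, the import proteins Tomm70 at 0.40, Timm23 at 0.41 and Timm44 at 0.40, the cristae protein Immt at 0.67, Phb1 (prohibitin) at 0.67 and Atp5f1a (a subunit of ATP synthase) at 0.47. Among all genes 2.94% rose. Of those that did not pass, the largest were Tomm40 at 0.31, Cox4i1 at 0.26, Tfam at 0.20 and Tomm20 at 0.17. The median of the 14 genes was 0.41, beside 0.51 for the synthesis enzymes, with pair medians of 0.45, 0.59 and 0.27. In pair 3 the RAP rat was higher for 11 of the 14 and lower for Cox4i1, Tfam and Tomm20. Over the 6 arrays the mean of the 14 genes was correlated with Coq5 at 0.96, with Coq6 at 0.94 and with Coq8a at 0.90, but with Coq3 at 0.68 and with Coq4 at 0.18. Whether the synthesis enzymes changed apart from the amount of mitochondria was not tested.

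**Figure D4:**
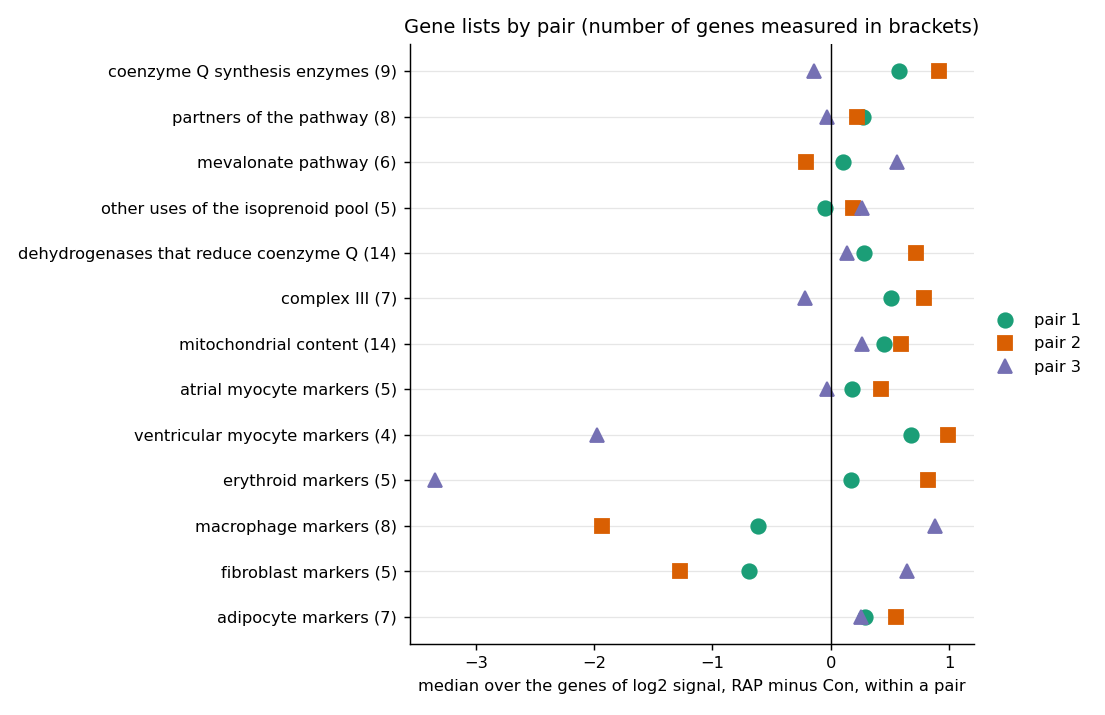
The median over the measured genes of each list of RAP minus Con within a pair (horizontal axis, log2 scale), with the number of genes in brackets and 1 symbol per pair. The synthesis enzymes are above 0 in pairs 1 and 2 and at -0.14 in pair 3, the mitochondrial content list is above 0 in each pair, and the ventricular and erythroid markers reach -1.97 and -3.34 in pair 3.

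The genes whose pattern was most like that of Coq6 over the 6 arrays were Naa15, a subunit of an N-terminal acetyltransferase (Pearson's r = 0.9988, change 0.55), Tomm70 (0.9988, 0.40), Tpp2, a peptidase (0.9946, 0.36), Idh3a, a subunit of isocitrate dehydrogenase of the citric acid cycle (0.9920, 0.76), and Fbxo8 (0.9918, 0.26). All 5 were higher with RAP in every pair. The genes most like the mean of the other 8 measured members were Uqcrfs1 (0.9993, 0.52), Nexn, a protein of the sarcomere's Z disc (0.9988, 0.66), Eif3j, a translation initiation factor (0.9976, 0.49), Tecrl (0.9974, 0.86) and Atp5pb, a subunit of ATP synthase (0.9969, 0.32). All 5 of these were higher with RAP in pairs 1 and 2 and lower in pair 3, so that the 2 sets differed in the sign of pair 3. They were picked for their likeness among 11237 genes over 6 arrays, and these values carry no test.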

How the data were processed

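Left atrial RNA of 3 RAP and 3 Con rats had been hybridized to 1 Affymetrix rat whole-transcript array each. Each deposited value is the log2 signal of a probe set on 1 array, made by the authors in Partek with the default settings of robust multiarray averaging (RMA: background correction, quantile normalization, probe summary). The version is not given in the sources used here. They were used without further normalization and ranged from 1.1 to 13.9; the array medians were 5.82 to 5.85, and 62.6 to 63.8% of the 29214 probe sets exceeded 5. The number of arrays limits the precision.

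Probe sets above a log2 signal of 5 in at least 1 array were kept (19907). In the array annotation 15310 probe sets have 1 symbol, 323 several and 13581 none; a gene is given by its single-symbol probe set with the highest mean. RAP minus Con was fitted with limma 3.58.1 in R 4.3.3, with the pair as a block (2 residual and 2.76 prior degrees of freedom), and p-values were adjusted over all kept probe sets. The fit had first been run on simulated arrays with no pair effect and with planted changes larger than that of any member. That run therefore does not bear on calls of the size reported here. The labels number the replicates of each group and name no pair, so rats with the same number were taken as a pair. The paper states that a pair was kept and paced together, and it reports that pairs looked alike in a principal component analysis. The deviations of paired arrays from their group means were correlated at 0.22, -0.24 and -0.32 in pairs 1 to 3. By this measure pairs 2 and 3 as numbered here were not alike, which differs from that report. The pairing by number therefore remains an assumption, and the values given by pair rest on it. Leaving out a single array was fitted without the block.

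The members and lists were chosen with earlier results of these data known. All members are given with values; of the other lists, those past the thresholds and at most 4 others, those with the largest change, except that Coq8b and Fdx2 were added after their values were seen. The 5 genes most like Coq6, and most like the mean of the other members, were taken by Pearson's r. Promoter sequences are those of RefSeq for GRCr8. The alternatives were no block, the methods' t-test, limma with trend and robust moderation, array weights, no and a stricter filter, median centring, quantile normalization, the mean of the probe sets of a gene, and each pair or array left out.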

Additional observations from a re-analysis of the deposited data

How the results depend on the processing

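Coq5 passed the thresholds in all 19 settings and Coq6 in 17, though these settings overlap and include the main fit. With a pair left out Coq6 was at 0.47 to 0.59 and missed the thresholds without pair 1 and without pair 2. No member fell in any setting. Array weights, estimated from these same 6 arrays, were 4.911 for the arrays of pair 1, 0.623 for pair 2 and 0.327 for pair 3. The weighted fit thus rested mostly on pair 1 and least on pair 3. It raised the count of risen members to 6. Their adjusted p (limma) was 0.0368 for Coq5 and Coq6, 0.0408 for Coq8a and Coq9, 0.0429 for Coq7 and 0.0769 for Coq3. Because the weights came from the values tested, these adjusted p are not further evidence of a rise. With the weights 1161 genes (10.3%) rose and 1489 fell, against 330 and 388 in the fit with the block and no weights. With a pair left out the count of risen members ran from 1 to 6. Without RAP 3 or without Con 3, in fits without the block, it was 5, beside 4.76% and 6.85% of all genes. Over the pairs and arrays left out, 58 to 1066 of all genes rose, 106 to 1422 fell, and the median of the members was 0.18 to 0.79. Without the replicate block 3 members passed (Coq5, Coq6 and Coq8a), beside 3.62% of all genes that rose, and the block changed no other call of a member. The methods' paired t-test called 119 genes higher and 115 lower. The estimate of Coq3 turned to -0.042 without pair 2 (0.79 without pair 3). That of Coq4, -0.058, was -0.18 to 0.16 with a pair left out, turned in sign without pair 3, and was 0.094 with array weights, 0.028 without RAP 3 and 0.071 without Con 3. Median centring moved the median of all genes to 0.03 and quantile normalization to 0.005, and no call of a member changed with either. The cause of these shifts was not tested. With 3 rats a group, the intervals of the 7 members that did not pass include both 0 and changes as large as those of Coq6, except for Coq4, whose interval ends at 0.43.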

Other observations

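Coq8a belongs to a family of atypical kinases of which Adck1, Adck2 and Adck5 are not counted among the steps of the pathway here; they were added after the values of the pathway had been seen. Adck1 had a log2 signal of 6.60, 6.70 and 6.71 in RAP rats 1 to 3, against 6.48, 6.36 and 6.35 in Con rats 1 to 3, and every RAP rat was above every Con rat. Its change of 0.27 (SE 0.135) did not pass the thresholds (unadjusted p = 0.102, adjusted p = 0.758, limma). Adck2 was at -0.036 (SE 0.134) and Adck5 at -0.24 (SE 0.155), lower with RAP in pairs 1 and 2. Unlike Coq8a, none of the 3 had its highest Con value in Con 3.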
